A study of Mus musculus with 8 samples.

Results

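The genes examined were those through which the ureteric bud and the metanephric mesenchyme meet at the basement membrane. They were nephronectin (Npnt), the integrin subunits alpha 8 (Itga8) and beta 1 (Itgb1), and the Fraser complex genes Fras1, Frem1, Frem2 and Grip1. They were taken by name from the probe sets (groups of array probes read as 1 value) that carry a single gene symbol, and all 7 were measured, each by 1 probe set, among 19356 genes in all. The tissue was the caudal part of the mouse urogenital ridge at E10.75, where the bud forms, and its RNA was read on 8 arrays. There were 4 wildtype replicates and 4 Sox11-/- (Sox11 knock-out) replicates in mice of a mixed genetic background. The labels call the replicates biological but do not say if each holds a single embryo or pooled ridges, or if the genotypes shared litters. Values are log2 signals, so that a difference of 1 is a doubling, and changes are knock-out minus wildtype.

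Nephronectin is a matrix protein laid down in the basement membrane of the nephric duct and ureteric bud. It is the ligand of the integrin made of the alpha 8 and beta 1 subunits, which the surrounding mesenchyme carries, and in mice loss of either side can stop the bud from entering the mesenchyme. FRAS1, FREM1 and FREM2 form a complex in the basement membrane under embryonic epithelia that anchors nephronectin there, and GRIP1 is the cytoplasmic scaffold that brings FRAS1 to the basal cell surface. Mutations of the complex cause Fraser syndrome and related disorders, in which kidneys may be missing.

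The targeted gene, Sox11, read 11.76, 11.81, 11.72 and 11.86 in the wildtype arrays and 9.24, 9.13, 8.93 and 9.12 in the knock-out arrays, so each array went with its label. The sources used here do not say if its probes sit inside the deletion. Over all genes limma called 70 higher and 209 lower in the knock-out at a Benjamini-Hochberg adjusted p under 0.05, or 82 and 137 when each array was centred on its median. All 12 markers of the duct epithelium and all 9 measured markers of the metanephric mesenchyme lay above the 25th percentile of signal over all genes (6.22). So did all 7 endothelial, all 5 stromal and 8 of 9 erythroid markers, so this low bar shows that no duct or mesenchyme marker was at the bottom of the scale and does not single out the tissue. Y-linked genes gave signal in 1 wildtype array (replicate 1) and in 2 knock-out arrays (replicates 3 and 4).

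Of the 7 genes, limma with adjustment over all genes called 0, where the same test called 1.44% of all genes (0.362% higher and 1.08% lower). At an unadjusted p under 0.05 there was 1, Npnt, on the higher side, against 16.7% of all genes (7.29% higher and 9.38% lower). In none of the 7 did the arrays of the genotypes separate fully, which they did for 10.5% of all genes. The median change was 0.02, beside 0.00 over all genes, with 6 of 7 above 0 against 49.9% of all genes. The changes ran from -0.10 for Grip1 to 0.37 for Npnt.

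Npnt, the ligand, had the largest difference of the 7. Its log2 signal was 10.390, 10.181, 10.609 and 10.435 in the wildtype arrays and 10.573, 10.954, 10.751 and 10.801 in the knock-out arrays. The knock-out arrays all lay above the wildtype mean and 3 of them above every wildtype array, while knock-out replicate 1 lay just under wildtype replicate 3. The means were 10.40 ± 0.18 and 10.77 ± 0.16 (SD, n = 4 each), a difference of 0.37 (SE 0.10, 95% interval 0.13 to 0.60) or 1.29-fold. With a limma p of 0.00534 before and 0.119 after adjustment over all genes, it did not pass the threshold. Differences of at least this size, in either direction, were seen in 3.49% of all genes. The difference was 0.29 without wildtype replicate 2, the lowest array, and 0.30 without knock-out replicate 2, the highest.

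Itga8, the receptor subunit that pairs with nephronectin, had nearly equal means in the genotypes. It read 10.28, 10.16, 10.57 and 10.46 in wildtype and 10.27, 10.14, 10.48 and 10.67 in knock-out ridges. The arrays of the genotypes were interleaved, with both the lowest and the highest array from the knock-out. The change was 0.02 (SE 0.12, limma adjusted p = 0.94), and its 95% interval of -0.25 to 0.30 leaves room for a fold between 0.84 and 1.23. This gene varied more between replicates than most, with a pooled within-genotype SD of 0.21 against a median of 0.12 over all genes.

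Itgb1 encodes the beta subunit shared by many integrins and varied little. The values were 11.18, 11.35, 11.32 and 11.19 in wildtype and 11.31, 11.28, 11.25 and 11.31 in the knock-out. All knock-out arrays fell inside the wildtype range, and the change was 0.02 (SE 0.06, 95% interval -0.12 to 0.17, limma adjusted p = 0.875).

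Ligand and receptor were also set against each other array by array. The log2 signal of Npnt minus that of Itga8, taken relative to its mean over the 8 arrays, was -0.10, -0.19, -0.17 and -0.23 in wildtype and 0.10, 0.60, 0.06 and -0.07 in the knock-out. Every knock-out array lay above every wildtype array, by a mean of 0.34, and knock-out replicate 2 lay far above the rest. Without that array the mean difference was 0.20, and without each of the other 7 it was 0.32 to 0.42. This pairing was chosen after the values were seen and was not tested.

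**Figure D1:**
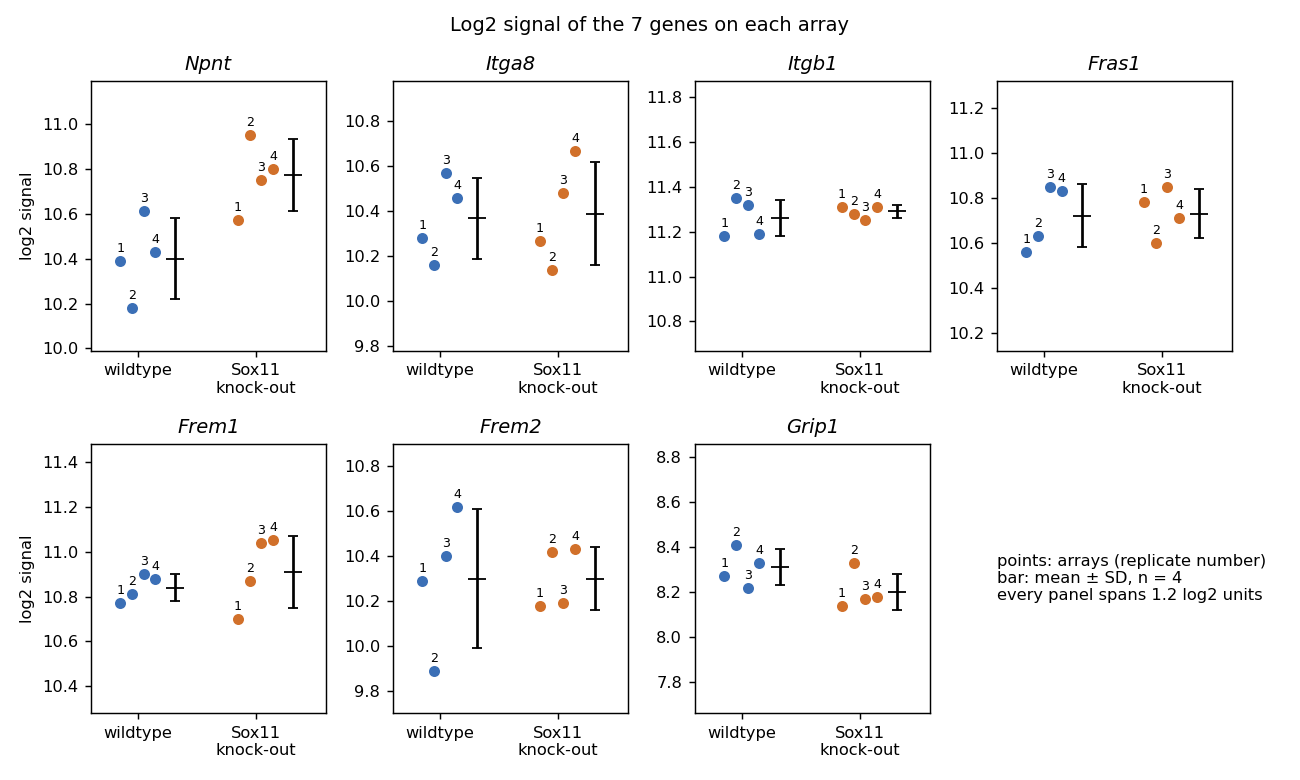
Log2 signal of the 7 genes (y axis, each panel spanning the same range) in wildtype and Sox11 knock-out arrays (x axis), with a point for each array labelled by its replicate number and a bar for the mean ± SD of 4 arrays. For Npnt 3 of the 4 knock-out points lie above every wildtype point, and for Grip1 3 of the 4 lie below every one. For the remaining genes the genotypes overlap more widely.

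Npnt and Itga8 are the ligand and receptor of this contact and Sox11 encodes a transcription factor, so their promoters are shown, each from 250 bases before to 50 bases after an annotated start (RefSeq, GRCm38.p6, minus strand of the chromosome, read 5′ to 3′ along the gene). They lie at chr3:132950242-132950541 and chr2:12301895-12302194. Capitals mark ACAAAG or ACAATG on either strand, the core letters that SOX proteins bind.
Npnt: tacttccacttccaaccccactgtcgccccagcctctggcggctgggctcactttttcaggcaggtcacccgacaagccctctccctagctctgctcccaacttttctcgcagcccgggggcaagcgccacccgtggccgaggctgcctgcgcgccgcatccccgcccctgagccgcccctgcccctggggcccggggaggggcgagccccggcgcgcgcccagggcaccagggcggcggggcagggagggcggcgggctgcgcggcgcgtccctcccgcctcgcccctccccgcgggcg
Itga8: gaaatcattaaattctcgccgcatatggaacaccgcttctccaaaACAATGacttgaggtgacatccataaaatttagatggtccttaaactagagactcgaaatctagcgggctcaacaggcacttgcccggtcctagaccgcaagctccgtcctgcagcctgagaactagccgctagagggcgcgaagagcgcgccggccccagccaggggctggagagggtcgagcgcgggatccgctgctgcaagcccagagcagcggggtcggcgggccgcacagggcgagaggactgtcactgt
The Npnt window holds no match and is 76.7% G or C, against a median of 52.7% over 32851 windows of the same length. The Itga8 window holds 1 match, ACAATG on the gene's own strand, at position -205 from the start. At least 1 match stood in 28.6% of all windows (18.7% for ACAAAG and 12.6% for ACAATG), and in 6 of the 10 windows of the 6 members with an entry. A match in such short letters is a description of the sequence and not a binding site, and a second Npnt window further along the gene also held none.

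The Fraser complex genes differed by little. Fras1, whose protein spans the cell membrane, read 10.56, 10.63, 10.85 and 10.83 in wildtype and 10.78, 10.60, 10.85 and 10.71 in the knock-out. The genotypes overlapped across nearly the whole range, with a change of 0.02 (SE 0.09, 95% interval -0.18 to 0.21, limma adjusted p = 0.939). Frem1, which encodes a secreted partner, read 10.77, 10.81, 10.90 and 10.88 in wildtype and 10.70, 10.87, 11.04 and 11.05 in the knock-out. Knock-out replicates 3 and 4 were above every wildtype array and replicate 1 below every one, and the change was 0.07 (SE 0.09, 95% interval -0.12 to 0.26, limma adjusted p = 0.698).

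Frem2, which encodes another membrane protein of the complex, had the widest spread of the 7, with a pooled SD of 0.24. It read 10.29, 9.89, 10.40 and 10.62 in wildtype and 10.18, 10.42, 10.19 and 10.43 in the knock-out. All knock-out arrays lay inside the wildtype range. The change was 0.00 (SE 0.14, 95% interval -0.30 to 0.31, limma adjusted p = 0.991), and it was -0.13 without wildtype replicate 2 and 0.11 without wildtype replicate 4. Grip1 read 8.27, 8.41, 8.22 and 8.33 in wildtype and 8.14, 8.33, 8.17 and 8.18 in the knock-out. Replicates 1, 3 and 4 of the knock-out were below every wildtype array and replicate 2 was not, and the change of -0.10 (SE 0.07, 95% interval -0.26 to 0.05) had a limma adjusted p of 0.485.

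For the 6 genes other than Npnt the 95% intervals lay between 0.81-fold and 1.24-fold. These bounds are those of Frem2, the widest of the 6, and the narrowest interval was that of Itgb1, from 0.92-fold to 1.12-fold. A p that misses the threshold does not show that a level was the same. Each gene is read by a single summary of its probes, so transcript variants of a gene cannot be told apart.

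**Figure D2:**
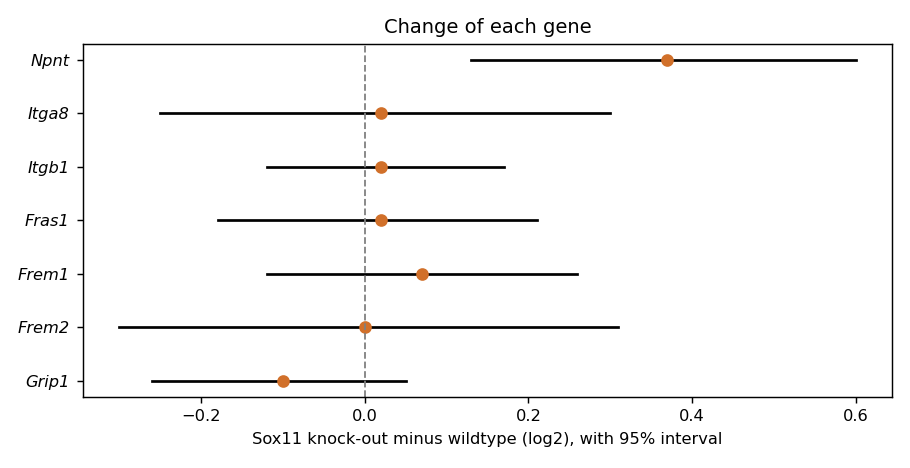
Change of each of the 7 genes (x axis, Sox11 knock-out minus wildtype on the log2 scale; point, estimate; line, 95% interval of the limma fit, not adjusted for the number of genes). The interval of Npnt runs from 0.13 to 0.60, and the intervals of the other 6 genes include 0.

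The replicates within a genotype did not all stand in the same order from gene to gene. Wildtype replicate 2 was the lowest wildtype array for Npnt, Itga8 and Frem2 and the highest for Itgb1 and Grip1. Wildtype replicate 3 was the highest for Npnt, Itga8, Fras1 and Frem1. Among the knock-out arrays, replicate 1 was the lowest for Npnt, Frem1, Frem2 and Grip1, and replicate 4 the highest for Itga8, Itgb1, Frem1 and Frem2. Wildtype replicate 2 also had the lowest signal of all arrays for the epithelial genes Cdh1, which encodes E-cadherin (7.87, other arrays 8.37 to 8.74), and Calb1, a calcium-binding protein of the duct (10.76, other arrays 10.97 to 11.89). Not all duct markers were low on that array, since Ret (9.72) and Wnt11 (7.80) read highest of the wildtype arrays there. The part of these in the member values was not tested.

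For the 2 tissues that these genes join, the marker means of the genotypes did not overlap, though few single markers passed the test. Such separation was also seen in other lists given below, and how often the means of gene lists separate was not tested. The 12 duct markers had a mean log2 signal of 9.04 to 9.27 in the wildtype and 9.36 to 9.46 in the knock-out arrays, with a median change of 0.21 and 12 of 12 above 0, against 49.9% of all genes. Limma called 1 of them, the GDNF receptor gene Ret, higher, beside 1.44% of all genes called. Lhx1 (0.42) and Calb1 (0.63) did not pass (limma adjusted p = 0.0577 and 0.0624). At an unadjusted limma p under 0.05, 6 of the 12 were higher and 0 lower, against 7.29% and 9.38% of all genes. The 9 mesenchyme markers had a mean of 9.93 to 10.02 in the wildtype and 9.66 to 9.85 in the knock-out arrays, with a median change of -0.21 and 2 of 9 above 0. At an unadjusted limma p under 0.05, 0 of these 9 were higher and 5 lower, against 7.29% and 9.38% of all genes. Limma called 1, Six2, a factor of nephron progenitors, lower (-0.48, adjusted p = 0.0437), and it lost that call without each array but wildtype replicate 1 (adjusted p up to 0.122) and in 4 of 11 other settings (up to 0.134). Meox1 had the largest change of the 9 mesenchyme markers, at -0.94, and did not pass (limma adjusted p = 0.0517). The part of these differences in the values of Npnt and Itga8 was not tested. In bulk tissue fewer cells of a type and less RNA per cell cannot be told apart.

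Array by array, Npnt lay at -0.20, -0.41, 0.02 and -0.15 from its own mean in the wildtype and at -0.01, 0.37, 0.16 and 0.21 in the knock-out. The duct marker mean lay at -0.12, -0.24, -0.01 and -0.16 and at 0.10, 0.08, 0.19 and 0.15. Wildtype replicate 2 was the lowest and wildtype replicate 3 the highest of the wildtype arrays in both. The knock-out arrays did not share an order, since replicate 2 was the highest for Npnt and the lowest for the duct marker mean. Itga8 lay at -0.10, -0.22, 0.19 and 0.08 and at -0.11, -0.23, 0.11 and 0.29, while the mesenchyme marker mean lay at 0.14, 0.06, 0.12 and 0.15 and at -0.21, -0.12, -0.01 and -0.13. The mesenchyme marker mean was thus lower on every knock-out array than on every wildtype array, and Itga8 was not.

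**Figure D3:**
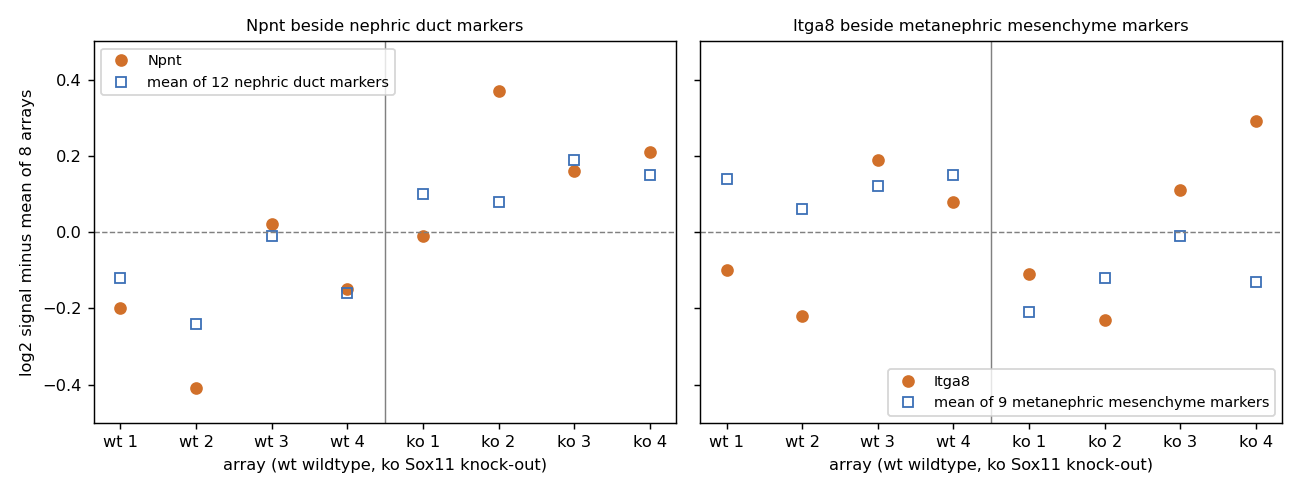
Log2 signal minus the mean of the 8 arrays (y axis) on each array (x axis), for Npnt beside the mean of 12 nephric duct markers (left) and for Itga8 beside the mean of 9 metanephric mesenchyme markers (right). Npnt and the duct marker mean are lowest on wildtype replicate 2, and the mesenchyme marker mean lies below 0 on all 4 knock-out arrays, where Itga8 runs from -0.23 to 0.29.

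Markers of other cells the dissection could hold had these values. For comparison, limma called 1.44% of all genes, and at an unadjusted p under 0.05 had 7.29% higher and 9.38% lower. Erythroid markers had a median change of -0.22 (mean log2 signal 8.52 to 9.14 in wildtype, 8.51 to 8.79 in knock-out), with 0 of 9 called and 4 lower at an unadjusted p under 0.05. Muscle markers had 0.28 (7.73 to 8.10 and 7.99 to 8.33), with 0 of 8 called and 4 higher at an unadjusted p under 0.05. Endothelial markers had 0.09 (9.79 to 10.09 and 9.90 to 10.21), stromal markers -0.01 (11.08 to 11.22 and 10.95 to 11.20) and gonad markers -0.07 (up to 7.69 in wildtype, 6.72 to 7.57 in knock-out). Limma called 0 of these 7, 5 and 6 genes, and at an unadjusted p under 0.05 there were 0, 2 and 0. The 2 stromal markers went opposite ways, with Foxd1 at -0.63 and Tcf21 at 0.23 (limma adjusted p = 0.0633 and 0.289). Neuronal and neural crest markers had -0.30 (7.57 to 7.74 and 7.31 to 7.44), with 4 of 7 lower at an unadjusted p under 0.05. Limma called 1 of them, Dcx, lower, a call lost without each array but knock-out replicate 3 (adjusted p up to 0.113). Dcx also lost it in 4 of 11 other settings (limma adjusted p up to 0.155). Somite markers had -0.06 (8.14 to 8.21 and 7.78 to 8.07), and limma called 2 of 6, Uncx and Meox2, lower. Uncx was at a limma adjusted p of 0.0505 without knock-out replicate 1. Each of the 2 lost its call in 1 of 11 other settings (limma adjusted p = 0.109 for Uncx and 0.0646 for Meox2). In both of these lists the mean was lower on every knock-out array than on every wildtype array, and its part in the values of the 7 genes was not tested.

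The other ligands of the same integrin had higher means in the knock-out, none past the threshold. Of 6 measured genes limma called 0 and 2 had an unadjusted p under 0.05, beside 16.7% of all genes. All 6 changes lay above 0, against 49.9% of all genes, with a median of 0.16, and the smallest was that of Fn1, fibronectin, at 0.01 (limma adjusted p = 0.973). Tnc, the matrix glycoprotein tenascin C, read 8.90, 9.47, 8.57 and 7.96 in wildtype and 9.81, 9.23, 9.15 and 9.44 in the knock-out. The genotypes overlapped because wildtype replicate 2 was high, and the difference was 0.68 (SE 0.27, limma adjusted p = 0.238), or 0.43 without wildtype replicate 4. Egfl6, a relative of nephronectin with the same EGF and MAM domain layout, was at 0.35 (SE 0.13, limma adjusted p = 0.234).

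Among the 11 other alpha subunits that pair with beta 1 limma called 0. Their mean log2 signal was 8.63 to 8.75 in wildtype and 8.79 to 8.87 in knock-out arrays, which did not overlap. At an unadjusted p under 0.05 there were 4, all higher, beside 7.29% of all genes higher. Itga4, a receptor for fibronectin and VCAM1, read 8.83, 9.03, 8.38 and 8.70 in wildtype and 9.39, 9.64, 9.05 and 9.03 in the knock-out. Every knock-out array lay above every wildtype array, the closest only narrowly, and the difference was 0.55 (SE 0.16, limma adjusted p = 0.13). The collagen receptor subunit gene Itga1 was at 0.43 (SE 0.16, limma adjusted p = 0.21), or 0.28 without wildtype replicate 4.

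Of the 7 other beta subunits limma called 0. At an unadjusted p under 0.05, 1 was higher and 1 lower, beside 7.29% and 9.38% of all genes. Itgb8, which pairs with the alpha v subunit to activate latent TGF-beta, was the nearest to the threshold. It read 8.58, 8.45, 8.24 and 8.54 in wildtype and 8.16, 8.09, 8.08 and 8.09 in the knock-out, with all knock-out arrays below all wildtype arrays. The difference was -0.35 (SE 0.08, limma adjusted p = 0.0673), and leaving out wildtype replicate 3 gave -0.42 (limma adjusted p = 0.0286). Itgb8 did not pass without any other array (limma adjusted p up to 0.17) or in 10 of 11 other settings (up to 0.134). Itgb5, another partner of alpha v, was at 0.22 (SE 0.07, limma adjusted p = 0.146).

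In the integrin adaptors and kinases limma called 1 of 14 genes higher and 0 lower, beside 0.362% and 1.08% of all genes. Tns1 encodes tensin 1, which links integrin tails to actin. It rose from 9.80, 9.87, 9.96 and 9.68 in the wildtype to 10.13, 10.17, 10.30 and 10.28 in the knock-out arrays, which did not overlap. The change was 0.39 (SE 0.08, 95% interval 0.22 to 0.57, limma adjusted p = 0.0379). It missed the threshold without each array but wildtype replicate 3 (limma adjusted p up to 0.123), and the mean of its probe sets changed by 0.22 (limma adjusted p = 0.159). The 5 other probe sets of the gene had changes of 0.00 to 0.27, and none passed when every probe set was tested (limma adjusted p = 0.211 or higher). The remaining 13 genes of the list did not pass.

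Of 15 basement membrane genes limma called 0. At an unadjusted p under 0.05, 3 were higher and 1 lower, beside 7.29% and 9.38% of all genes. Nid2, a nidogen that bridges laminin and collagen IV networks, read 9.59, 9.83, 9.89 and 9.70 in wildtype and 10.20, 9.95, 10.20 and 10.27 in the knock-out. The arrays did not overlap, and the difference was 0.40 (SE 0.09, limma adjusted p = 0.0633). It passed without knock-out replicate 2 (limma adjusted p = 0.0411) and missed without each other array (up to 0.177). Among 11 other settings it passed in 5, such as with each array centred on its median (0.0476) and after a further quantile normalization (0.0452). It missed in the other 6 (limma adjusted p up to 0.147). The heparan sulphate proteoglycan gene Agrn was at -0.23 (SE 0.07, limma adjusted p = 0.116).

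The relatives and partners of the Fraser complex held no call among 9 genes. Beside 16.7% of all genes, 1 of them had an unadjusted p under 0.05. This was Vwa2, a basement membrane protein that binds the complex, at -0.20 (SE 0.07, limma adjusted p = 0.195), with knock-out arrays of 6.36 to 6.61 below wildtype arrays of 6.64 to 6.79. Fbln2, a fibulin, was at 0.27 (SE 0.15, limma adjusted p = 0.374). In the list of genes that act with nephronectin and integrin alpha 8 in budding, limma called Ret higher and 0 lower. The other 15 of 16 did not pass, where 1.44% of all genes were called. At an unadjusted p under 0.05 there were 2 higher and 4 lower, beside 7.29% and 9.38% of all genes. The median change of 0.00 stood between members on both sides, such as Gata3 at 0.25 and Eya1 at -0.28 (limma adjusted p = 0.0845 and 0.0609). Both are transcriptional regulators of kidney development and were named after their values were seen. Ret read 9.71, 9.72, 9.64 and 9.59 in wildtype and 10.14, 10.17, 10.02 and 9.95 in the knock-out, a change of 0.41 (SE 0.07, limma adjusted p = 0.022), and it lost its call without 5 of the 8 arrays (wildtype replicates 2 and 3 and knock-out replicates 1, 2 and 3, limma adjusted p up to 0.0764).

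Counted together, the 7 lists held 78 measured genes, of which limma called 2 higher (Tns1 and Ret), or 2.56%, beside 1.44% of all genes. In 12 of the 78 the genotypes did not overlap, where 10.5% of all genes did not, and 56 changes lay above 0, against 49.9% of all genes.

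**Figure D4:**
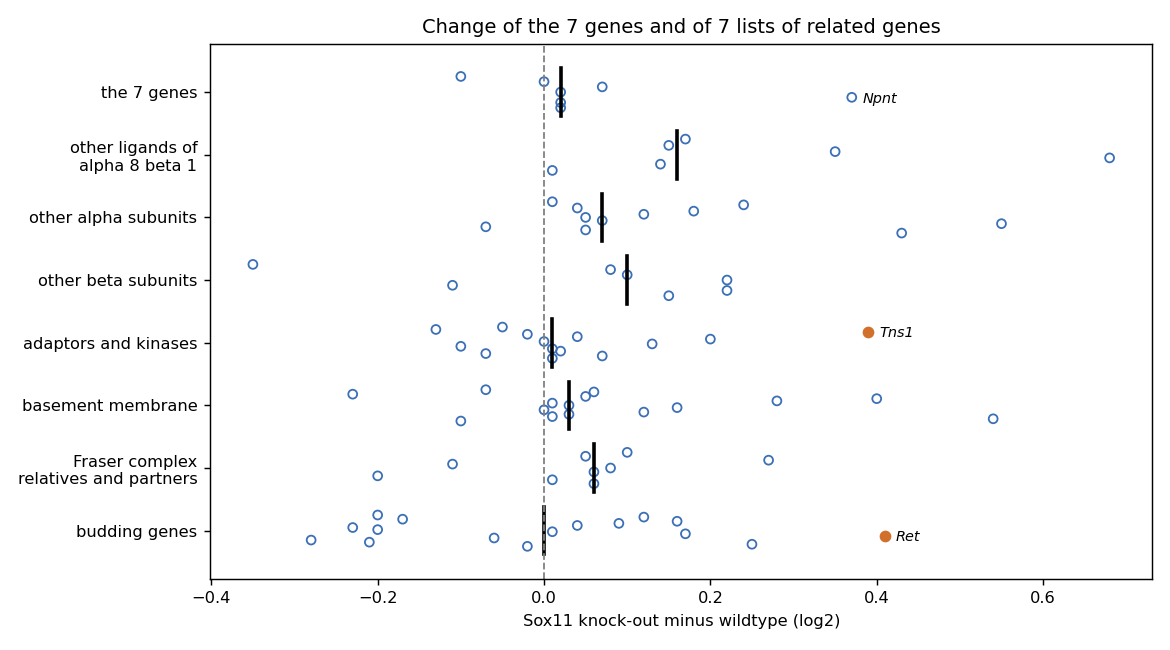
Change (x axis, Sox11 knock-out minus wildtype on the log2 scale) of the 7 genes and of the genes in 7 lists of related genes (y axis). Filled points passed the limma threshold, open points did not, and black bars mark the median of each list. Only Tns1 and Ret are filled among these genes, and Npnt lies apart from the other 6 at 0.37.

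By the smallest mean absolute difference between profiles, each centred on its own mean over the 8 arrays, the genes most like Npnt were Hacd4 (0.04), Doc2a (0.05) and Dkk1 (0.07), where the median gene differed by 0.22. Dkk1 encodes a secreted inhibitor of WNT signalling. It read 8.81, 8.82, 9.10 and 8.86 in wildtype and 9.23, 9.44, 9.25 and 9.19 in the knock-out. These did not overlap, and the difference of 0.38 (SE 0.09) had a limma adjusted p of 0.0633. Hacd4 and Doc2a were at 0.30 and 0.29 (limma adjusted p = 0.20 and 0.185). The match used the arrays of both genotypes, so higher values of these genes in the knock-out follow from the choice.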

How the data were processed

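Gene expression was measured on 8 arrays (4 wildtype, 4 Sox11 knock-out), after ribosomal RNA depletion and labelling with the Affymetrix WT kit, per the labels' protocols. The deposited values are log2 signals for 27478 probe sets, made by the authors with RMA and Partek, per the submitters' processing notes. The sources used here give no settings, filters or build, and the log2 scale was read from the values (4.30 to 14.62, array medians 7.29 to 7.31). RMA equalises the arrays, so a global rise or fall of RNA is hidden. The small number of arrays limits the precision.

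Probe sets with 1 symbol in the platform's annotation (21103) were kept, taking for each gene the one with the highest mean over the 8 arrays. The knock-out was set against wildtype with limma 3.58.1 under R 4.3.3 (lmFit, then eBayes; genotype as the only term, all 8 arrays, two-sided), adjusted by Benjamini-Hochberg over 19356 genes. Intervals are limma's 95% intervals. Alternatives were other scalings, level filters, probe set rules, moderation, array weights, a replicate block, a Y-linked signal covariate and leaving out each array. Simulated data had 19356 genes and 8 arrays, with independent normal noise at each gene's own within-genotype spread. There the test recovered 73% of 100 genes changed by 0.5 and 100% of 100 changed by 1 (log2), with 7 false calls among 180. Variation shared between genes was not simulated, nor was a change of 0.37, that of Npnt.

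The genes and lists were chosen with earlier results of these data known, so no list was tested as a set. Named genes were the 7 genes, Sox11, up to 4 called genes of each pathway list or else its 2 lowest p-values, the 3 lowest p-values of each marker list and the 3 genes most like Npnt; most marker genes are given by their lists only. Cdh1, Wnt11, Fn1, Gata3, Eya1 and the difference between Npnt and Itga8 (also taken without each array) were chosen after their values were seen. Some listed genes are not reported here.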

Additional observations from a re-analysis of the deposited data

Results flagged for a closer look

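No array stood far from the other 3 of its genotype in any of the 7 genes. Among the 42 other genes chosen by the naming rule, 8 had an array whose gap to the nearest other array of its genotype took up more of the genotype's whole range than Dixon's 95% critical value for 4 samples. These came from 98 groups of 4 arrays, of which chance flags about 1 in 20. Itgb8 read 8.16 in knock-out replicate 1, the highest of its genotype, and Itgb5 read 10.33 in knock-out replicate 3, the lowest. Foxd1 read 9.94 in wildtype replicate 1 (lowest), Rhag 7.38 in wildtype replicate 3 (highest) and Dkk1 9.10 in wildtype replicate 3 (highest). Meox2 read 9.34 in knock-out replicate 3 (highest), Pax3 6.05 in knock-out replicate 4 (lowest) and Emx2 9.74 in knock-out replicate 2 (lowest).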

How the results depend on the processing

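Npnt missed the threshold in all 19 alternatives, 11 of setting and 8 that each left out 1 array. Its change was 0.35 to 0.40 over the 11 settings (limma adjusted p 0.0822 to 0.229) and 0.29 to 0.43 over the 8 left-out arrays (0.105 to 0.261). The other 6 genes also missed it throughout. Leaving out 1 array gave -0.07 to 0.11 for Itga8, 0.00 to 0.05 for Itgb1, -0.03 to 0.06 for Fras1, 0.03 to 0.14 for Frem1, -0.13 to 0.11 for Frem2 and -0.14 to -0.07 for Grip1, so the signs of Itga8, Itgb1, Fras1 and Frem2 turned on single arrays. With the Y-linked signal (3 genes) as a covariate Itga8 was at -0.01. With the mean of its probe sets Dppa3, a germ cell gene of the gonad list, was at 0.19 and turned sign. Cldn5 (0.00 to 0.15), Gata4 (-0.43 to 0.09) and Emx2 (-0.02 to 0.21) turned sign without 1 array.

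Over all genes the 279 calls became 55 without moderation, 166 with a replicate block and 151 with the Y-linked covariate, and 107 to 243 without 1 array. The 70 higher calls became 7 without moderation and 34 with the covariate (17 to 55 without 1 array). The 209 lower calls became 137 with median centring, 48 without moderation, and 117 with the block and also with the covariate (88 to 192 without 1 array). Deviations of same-numbered arrays correlated at -0.17, 0.09, -0.04 and 0.06. These values give no sign of pairing by replicate number, but they cannot show if same-numbered samples shared a litter. With the replicate block the alpha subunit list had 1 call (Itga4, adjusted p = 0.0326), the adaptor list 0 and Npnt an adjusted p of 0.189. The adaptor list also had 0 with the mean of probe sets, without moderation and with the covariate, and the beta subunit list 1 (Itgb8) among genes above the median level. The basement membrane list had 1 (Nid2) with median centring, quantile normalization, the median level filter, trend and robust moderation, and array weights. The budding list had 2 with the 25th percentile filter and with array weights, 3 with the median level filter and with trend and robust moderation, and 0 without moderation. Without 1 array the beta subunit, adaptor, basement membrane and budding lists had 0 to 1 calls and the other 3 had 0. Apart from fewer genes tested under the filters, the cause was not tested.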
